A study of Homo sapiens with 12 samples.

Results

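The 10 genes described here make or use glutathione or are textbook targets of the transcription factor NRF2, and they were read out in SK-N-SH, a line from a human neuroblastoma that holds neuron-like and flat, substrate-adherent cells, grown on surfaces of 1, 8 or 30 kPa. They are GSTM2, GSTM3, GSTM4, GSTP1, GCLC, GCLM, HMOX1, NQO1, TXNRD1 and SRXN1, taken by name from a deposited table of 60664 genes, of which 17960 passed a filter on low counts. All 10 passed that filter. The list was chosen by measured values: earlier results of these data were known, among them the low level of GSTM2 at 8 kPa. Values of 8 against 1 kPa, and of 8 kPa against the average of the outer stiffnesses, are therefore given for these 10 as a description, as are all differences of GSTM2. RNA was sequenced from 4 libraries at each stiffness, a higher kilopascal value meaning a stiffer surface. The labels name 1 cell line, no other treatment and no surface material, and they do not say whether the libraries came from separate cultures, so the p-values rest on variation among libraries that may be technical only.

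Glutathione is a small thiol that cells use to reduce peroxides and to tag reactive compounds for export. NRF2, encoded by NFE2L2, is held by KEAP1, which hands it to a ubiquitin ligase for destruction, and oxidants or electrophiles release this hold. NRF2 then pairs with small MAF proteins on antioxidant response elements in DNA, where the repressor BACH1 competes with it. Its targets include the enzymes that make glutathione, several glutathione transferases, and the thioredoxin system, which works in parallel to glutathione.

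Reads assigned to genes summed to 14317437 to 15896607 counts at 1 kPa, 14951116 to 25349320 counts at 8 kPa and 23896536 to 27820973 counts at 30 kPa. They fell into 5 shallow libraries, the 4 at 1 kPa and replicate 1 at 8 kPa, and 7 deep ones. Depth and stiffness therefore cannot be fully told apart for 1 kPa. A fit with a term for depth class sets 1 kPa against the stiffer groups through replicate 1 at 8 kPa alone. Nothing about depth is read from a result lost in such a fit. Transcripts of the mitochondrial genome took 11.3% to 14.8% of counts at 1 kPa, 10.2% to 11.5% at 8 kPa and 11.7% to 13.2% at 30 kPa. Of 8 adrenergic neuroblastoma markers, 7 passed the filter and TH, which makes the precursor of catecholamines, had 1 count in all libraries together. All 6 mesenchymal markers passed. The 4 immune markers summed to at most 1.05 CPM (counts per library scaled to 1e6) in any library. Other lists were not absent: 6 fibroblast markers summed to 1189 to 1649 CPM and 4 epithelial markers to 46.0 to 72.2 CPM per library.

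Levels per length set the 10 genes apart more than stiffness did. Divided by exon length, TXNRD1 and NQO1 came first at 1 kPa, with 99.1 ± 13.6 and 95.7 ± 9.73 CPM per kilobase (SD, n = 4), and their libraries overlapped. GSTP1 followed at 50.3 ± 3.46 CPM per kilobase. GCLM, GSTM3, GCLC and GSTM4 came next with 12.7, 8.30, 4.43 and 3.72 CPM per kilobase, each apart from its neighbours in that order. HMOX1 and GSTM2 overlapped at 2.68 and 2.08, and SRXN1 stood last at 0.212 CPM per kilobase. The order of the means was the same at 8 and 30 kPa. At 30 kPa the libraries of NQO1 overlapped those of GSTP1 and no longer those of TXNRD1. All levels below are CPM after scaling by the trimmed mean of M-values (TMM), and each fold change compares 1 gene between stiffnesses on the log2 scale.

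The 3 genes with the largest log2 fold changes between stiffnesses are shown first by their promoters, 250 bases before to 50 after the RefSeq start on GRCh38.p14, each 5′ to 3′ on the strand of the gene. Capitals mark TGACNNNGC, the core of the antioxidant response element, searched on both strands.
GSTP1, chr11:67583562-67583861, plus strand: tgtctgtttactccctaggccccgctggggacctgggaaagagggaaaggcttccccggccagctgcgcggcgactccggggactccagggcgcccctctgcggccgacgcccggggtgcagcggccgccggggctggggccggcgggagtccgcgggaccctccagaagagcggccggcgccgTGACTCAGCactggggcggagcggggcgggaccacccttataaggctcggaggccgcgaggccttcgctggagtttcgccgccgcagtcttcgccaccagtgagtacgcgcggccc
NQO1, chr16:69726511-69726810, minus strand: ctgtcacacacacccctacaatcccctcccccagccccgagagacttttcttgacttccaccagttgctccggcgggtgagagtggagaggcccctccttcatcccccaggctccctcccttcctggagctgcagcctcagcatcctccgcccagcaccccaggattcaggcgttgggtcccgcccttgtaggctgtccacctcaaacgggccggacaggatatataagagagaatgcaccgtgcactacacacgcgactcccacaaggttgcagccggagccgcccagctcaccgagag
GSTM2, chr1:109667807-109668106, plus strand: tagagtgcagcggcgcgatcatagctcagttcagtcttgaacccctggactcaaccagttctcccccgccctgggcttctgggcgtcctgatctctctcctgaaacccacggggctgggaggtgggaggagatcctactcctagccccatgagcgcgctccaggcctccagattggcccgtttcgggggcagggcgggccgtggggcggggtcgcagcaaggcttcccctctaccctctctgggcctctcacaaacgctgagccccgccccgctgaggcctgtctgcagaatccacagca
Of these 3 windows only that of GSTP1 held the core, at positions -66 to -58 from the start, where it overlapped the AP-1 site TGANTCA. GCLM and TXNRD1 also held it. The stretches around 1 match each are shown because they carry the letters on the other strand, where the capitals read as the reverse complement.
GCLM, chr1:93909431-93909489, minus strand: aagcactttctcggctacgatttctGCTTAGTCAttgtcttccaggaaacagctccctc
TXNRD1, downstream start, chr12:104286905-104286963, plus strand: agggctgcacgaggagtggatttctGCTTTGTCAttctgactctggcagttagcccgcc
The upstream TXNRD1 window held 2 further matches. In all, 3 of the 9 genes with a promoter in the table had a match, GSTP1, GCLM and TXNRD1, in 4 of 10 windows. Among 35116 promoters of the same length 13.3% had one. A match is a run of letters and not a measured site, and elements outside these 300 bases were not searched.

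NQO1, which reduces quinones by transferring 2 electrons at once, was the member with the lowest 30 kPa level relative to the other stiffnesses. Its gene lies on GRCh38 chromosome 16 (69706996 to 69726951, minus strand, ENSG00000181019). Replicates 1 to 4 held 313, 273, 309.7 and 350.4 CPM at 1 kPa, 298, 307, 299.6 and 253 CPM at 8 kPa and 196, 198, 182 and 238 CPM at 30 kPa. Every 30 kPa library thus lay below every library at 1 and 8 kPa, while 1 and 8 kPa overlapped. At 30 kPa NQO1 averaged 204 ± 24.3 CPM, against 311 ± 31.7 CPM at 1 kPa (n = 4 each, SD), which put the log2 fold change at -0.61 (SE 0.0933, adjusted p = 0.00651 in the edgeR quasi-likelihood F-test, Benjamini-Hochberg adjusted over all genes). That call held in all 12 leave-one-out fits, with adjusted p between 0.00254 and 0.0365. The 1 kPa libraries also enter the contrast that helped to choose the list, and leaving out 1 library does not remove that. With a term for depth class the log2 fold change was -0.56 and adjusted p = 0.444, a fit in which 0 of all genes passed in this comparison and 3 members had an unadjusted p under 0.05.

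Against 8 kPa, where NQO1 averaged 289.5 ± 24.6 CPM, the log2 fold change of 30 kPa was -0.51 (SE 0.093, adjusted p = 0.106). It ranked 13 by p among all genes in a comparison in which none passed edgeR's test. NQO1 passed with DESeq2 (adjusted p = 0.000389), with no filter (0.000477), in the 8 libraries alone (0.0399) and with replicate 2 (0.0283) or 4 (0.0456) of 1 kPa or replicate 4 of 8 kPa (0.016) left out. Among deep libraries alone the values did not overlap, from 182 to 238 CPM at 30 kPa and from 253 to 307 CPM in 8 kPa replicates 2 to 4. The shallow 8 kPa replicate 1, at 298 CPM, sat between the lowest and highest 1 kPa libraries. An antisense gene, AC092115.2, shares 17.7% of the exon bases of NQO1, and it had at most 6 counts in any library, against at least 3802 for NQO1. How reads in the shared bases were counted, and with which strand setting, is not given, so the level of NQO1 is uncertain to that extent.

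Markers of the cell states of this line moved in the same comparison. Summed over the 6 mesenchymal markers, levels ran from 3648 to 4127 CPM at 30 kPa and from 4398 to 4726 CPM at 1 kPa. Among them PRRX1 fell at 30 against 1 kPa (-0.35, adjusted p = 0.0144), while the adrenergic marker PHOX2A rose (0.52, adjusted p = 0.0475). Both were named after their values were seen. The adrenergic sum overlapped, from 620 to 712 CPM at 30 kPa and from 452 to 685 CPM at 1 kPa. Fewer cells of a state and less RNA per cell cannot be told apart in bulk RNA, and the part of these shifts in the level of NQO1, or of the other genes that differed between 30 and 1 kPa, was not tested. PHOX2A also rose at 8 against 1 kPa (0.49, adjusted p = 0.0264).

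**Figure D1:**
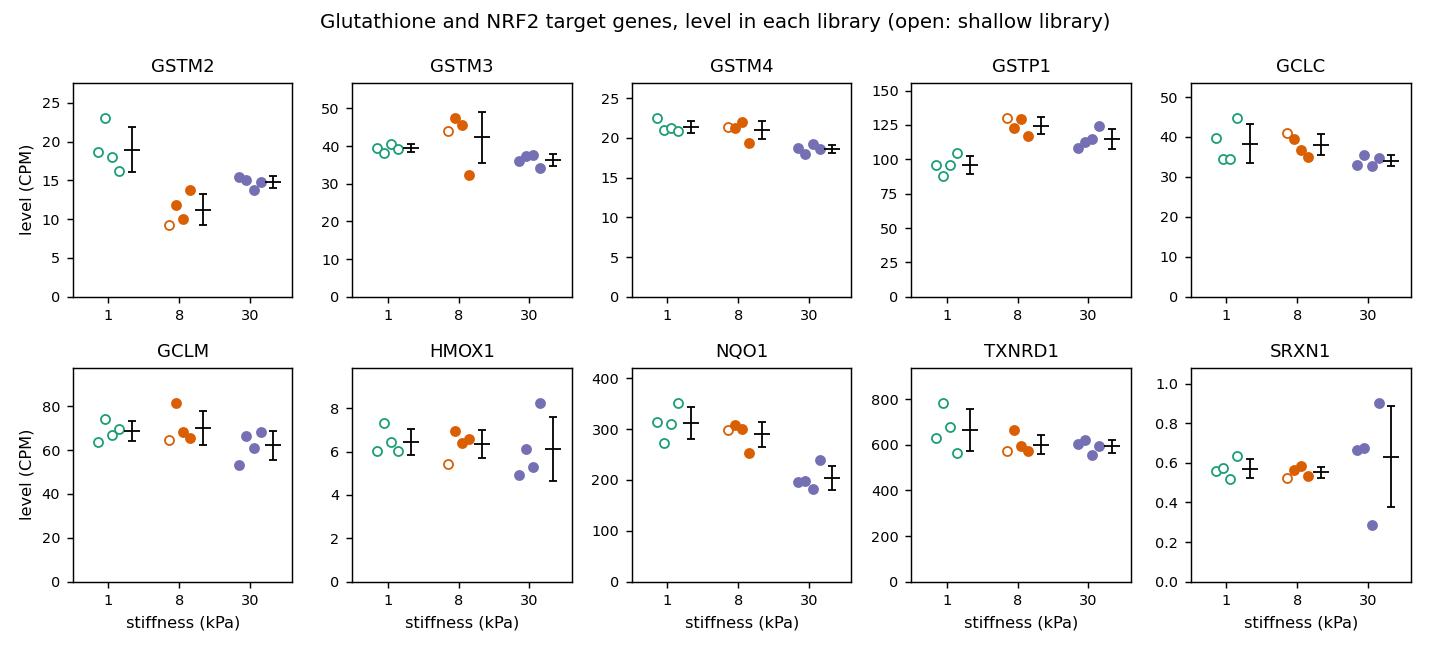
Level of each of the 10 genes (y axis, CPM, from 0) at 1, 8 and 30 kPa (x axis), with 1 point per library, open for the 5 shallow libraries, and the mean with its SD beside the points (n = 4). NQO1 lies between 182 and 238 CPM at 30 kPa, below every library at 1 and 8 kPa, GSTM2 is lowest at 8 kPa and GSTP1 is lowest at 1 kPa.

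GSTP1, the pi-class transferase that conjugates glutathione to electrophiles, had its lowest levels on the softest surface. The gene is on chromosome 11 (67583595 to 67586656, plus strand, ENSG00000084207). Replicates 1 to 4 held 96.0, 88.1, 96.1 and 104 CPM at 1 kPa, 129.7, 123, 129 and 117 CPM at 8 kPa and 108, 112, 115 and 124 CPM at 30 kPa. Both stiffer groups lay above all 1 kPa libraries and overlapped each other. The mean at 8 kPa, 125 ± 6.12 CPM, stood above that at 1 kPa, 96.1 ± 6.61 CPM, by a log2 fold change of 0.37 (SE 0.0618), given as a description. At 30 kPa it was 115 ± 6.99 CPM, a log2 fold change of 0.26 over 1 kPa (SE 0.0617, adjusted p = 0.045). This second value passed only narrowly, and its 1 kPa libraries also enter the contrast that helped to choose the list. It was lost in 10 of the 12 leave-one-out fits, in all but those that dropped replicate 4 of 1 kPa or of 8 kPa, with adjusted p up to 0.131. It was also lost with library size alone (0.0656), in the 8 libraries alone (0.0637) and with a term for depth class (0.444). The shallow 8 kPa replicate 1, at 129.7 CPM, was above all 4 equally shallow 1 kPa libraries, whose highest was 104 CPM. That is 1 library only. It also lay above the 1 kPa libraries for GSTM3 (44.0 CPM, against at most 40.6) and below them for HMOX1 (5.45 CPM, against at least 6.01).

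The mu-class transferases GSTM4, GSTM2 and GSTM3 sit in 1 cluster of 5 genes over 119.3 kilobases of chromosome 1, in the order GSTM4, GSTM2, GSTM1, GSTM5 and GSTM3 by start. GSTM2 (109668022 to 109709551, plus strand, ENSG00000213366) had 18.7, 23.0, 17.9 and 16.2 CPM at 1 kPa, 9.25, 11.8, 10.0 and 13.8 CPM at 8 kPa and 15.5, 15.0, 13.8 and 14.8 CPM at 30 kPa. Its 8 kPa libraries were all below those at 1 kPa, and 30 kPa replicate 3 fell just under the highest 8 kPa library. The log2 fold change of 8 against 1 kPa was -0.74 (SE 0.124), the value that helped to choose the gene. The shallow 8 kPa replicate 1, at 9.25 CPM, was below the equally shallow 1 kPa libraries, which held 16.2 to 23.0 CPM. That again is 1 library, and part of the 8 kPa level that helped to choose the gene. At 30 kPa the log2 fold change was 0.39 over 8 kPa (SE 0.122) and -0.36 against 1 kPa (SE 0.121), again as a description.

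GSTM4, whose annotated span overlaps that of GSTM2, had overlapping libraries at 8 and 1 kPa. It averaged 21.4 ± 0.729 CPM at 1 kPa, 21.0 ± 1.12 CPM at 8 kPa and 18.6 ± 0.489 CPM at 30 kPa. All 30 kPa libraries, from 18.0 to 19.2 CPM, lay below those of both softer surfaces, the lowest of which was 19.4 CPM. The log2 fold change at 30 kPa was -0.17 against 8 kPa (adjusted p = 0.181) and -0.20 against 1 kPa (adjusted p = 0.0946). GSTM3, read from the opposite strand and abundant in brain and testis, averaged 39.4 ± 1.01 CPM at 1 kPa, 42.3 ± 6.83 CPM at 8 kPa and 36.4 ± 1.55 CPM at 30 kPa. Replicate 4 at 8 kPa held 32.3 CPM, below every other library, and the rest of that group held 44.0 to 47.3 CPM. Without 8 kPa replicate 4 the log2 fold change of GSTM3 at 30 against 8 kPa was -0.33 (adjusted p = 0.016), against -0.22 with it (adjusted p = 0.243).

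Reads of close relatives can be misassigned, and the read length is not given in the sources used here. Of all stretches of 100 bases in GSTM2 transcripts, 12.9% also occur in another gene of the cluster, as do 6.47% of those of GSTM4 and 0% of those of GSTM3. GSTM1, the largest sharer with GSTM2, had 0 counts in all 1 kPa libraries, 1 or 2 in those at 8 kPa and at most 1 at 30 kPa. GSTM5 had 1 count over the 12 libraries. How reads shared by GSTM2 and GSTM4 were counted is not given, so the values of both are uncertain to that extent.

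The enzymes that make glutathione showed small differences. GCLC, the catalytic subunit of glutamate-cysteine ligase, which takes the rate-limiting step, averaged 38.3 ± 4.90 CPM at 1 kPa, 38.1 ± 2.68 CPM at 8 kPa and 34.0 ± 1.37 CPM at 30 kPa. GCLM, the modifier subunit that raises its efficiency, averaged 68.6 ± 4.50, 69.8 ± 7.75 and 62.1 ± 6.63 CPM at 1, 8 and 30 kPa. Both means were lowest on the stiffest surface, but libraries overlapped in every pair of stiffnesses and no difference passed. At 30 against 1 kPa the log2 fold change was -0.17 for GCLC (SE 0.0819, adjusted p = 0.276) and -0.14 for GCLM (SE 0.0869, adjusted p = 0.396). At 30 against 8 kPa it was -0.16 (adjusted p = 0.309) and -0.17 (adjusted p = 0.31).

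The other stress-induced members overlapped in all pairs of stiffnesses. TXNRD1, the cytosolic selenoenzyme that reduces thioredoxin, averaged 665 ± 91.1 CPM at 1 kPa, 602 ± 42.8 CPM at 8 kPa and 594 ± 28.4 CPM at 30 kPa. Its spread was widest at 1 kPa, from 566 to 782 CPM, and the log2 fold change of 30 against 1 kPa was -0.16 (adjusted p = 0.343). HMOX1, which breaks down heme and is strongly inducible, stayed low at 6.45 ± 0.617, 6.35 ± 0.646 and 6.13 ± 1.48 CPM at 1, 8 and 30 kPa. Its highest library, 30 kPa replicate 4 at 8.22 CPM, and its lowest, 30 kPa replicate 1 at 4.92 CPM, were in the same group. SRXN1, which repairs over-oxidised peroxiredoxins, had 8 to 23 counts per library and averaged 0.572 ± 0.0469, 0.552 ± 0.0285 and 0.632 ± 0.255 CPM at 1, 8 and 30 kPa. The 30 kPa libraries, from 0.287 to 0.901 CPM, held both its lowest and its highest value. Another annotated gene, AL121758.1, shares 85% of the exon bases of SRXN1 on the same strand and had at most 1 count. How reads falling in both were counted is not given, so the low level of SRXN1 is uncertain.

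**Figure D2:**
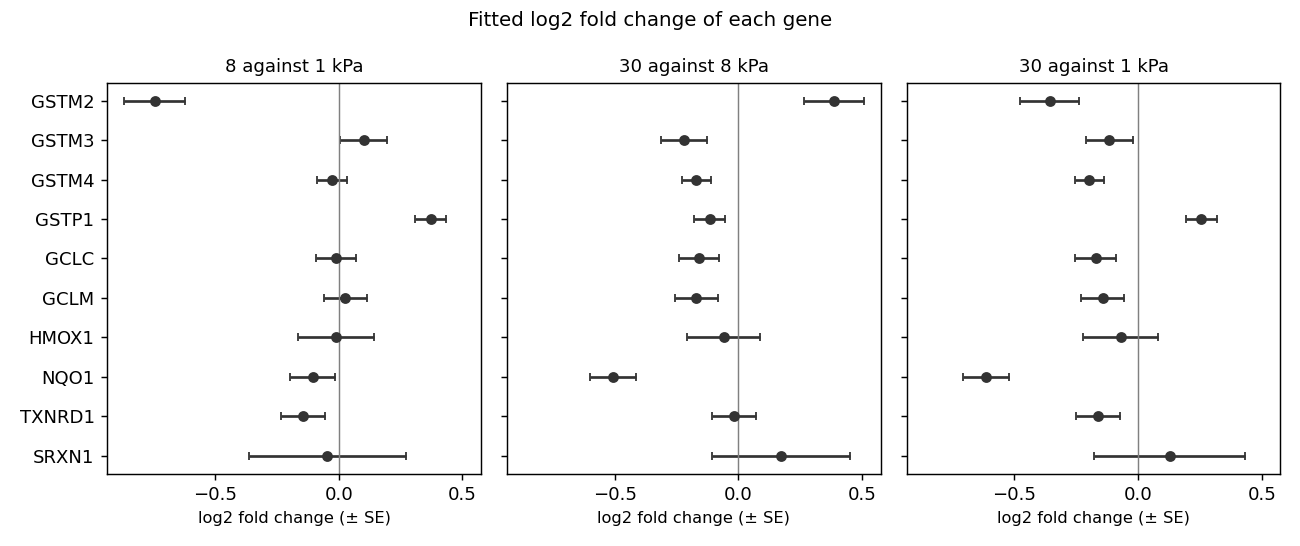
Fitted log2 fold change of each gene (x axis, with its SE as a bar) for 8 against 1 kPa, 30 against 8 kPa and 30 against 1 kPa, with the genes down the y axis. NQO1 stands at -0.51 and -0.61 in the 2 panels with 30 kPa, GSTM2 at -0.74 and GSTP1 at 0.37 in the panel of 8 against 1 kPa. The panels share libraries and are not independent.

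As a description, 2 of the 10 genes lay past the threshold in 8 against 1 kPa, GSTM2 lower and GSTP1 higher, where 13.8% of all 17960 genes did, 8.17% higher and 5.6% lower. Both also had groups that did not overlap, as 9.41% of all genes did higher and 7.36% lower. Nothing is read from these counts, since the contrast helped to choose the list. In 30 against 8 kPa 0 of 10 passed edgeR's test, as did 0% of all genes, while 4 of the 10 and 3218 of all 17960 genes had an unadjusted p under 0.05. GSTM2 is among those 4, and its low 8 kPa level was known when it was listed. The 0% depended on single libraries. With 8 kPa replicate 4 left out 1026 genes passed, 3 of them members and GSTM2 among these. Without 1 kPa replicate 2 187 genes passed, and without any other library 0 to 21 did. DESeq2 called 1 member, NQO1, and 430 genes in all. In 30 against 1 kPa NQO1 fell and GSTP1 rose, 2 of 10, beside 2.43% of all genes, 1.1% higher and 1.33% lower. Nothing is read from the counts of this comparison either, since its 1 kPa libraries also enter the contrast that helped to choose the list. The median log2 fold change of the 10 was -0.02, -0.14 and -0.15 in these comparisons, and the medians of all genes were -0.0148, 0.00372 and 2.06e-05. Groups did not overlap for 4 members lower at 30 than at 1 kPa, GSTM2 (a description), GSTM3, GSTM4 and NQO1, where 6.06% of all genes did so, and for GSTP1 higher, where 5.33% did. At 30 against 8 kPa the same held for GSTM4 and NQO1 lower, beside 6.5% of all genes, and for 0 members higher, beside 4.79%. For the distance of 8 kPa from the average of the outer stiffnesses, GSTM2 lay lower and GSTP1 higher past the threshold, 2 of 10 beside 7.08% of all genes, 4.42% higher and 2.66% lower. Nothing is read from that count either, since it uses the same 8 kPa level.

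The regulators of the pathway were measured in the same libraries. NFE2L2 averaged 184 ± 8.48 CPM at 1 kPa, 171 ± 12.6 CPM at 8 kPa and 157 ± 4.92 CPM at 30 kPa. Its 30 kPa libraries, from 153 to 163 CPM, were all below those at 1 kPa, from 175 to 196 CPM, and the log2 fold change was -0.23 (SE 0.0584, adjusted p = 0.0525). It passed with DESeq2 (0.0069), a stricter filter (0.046) and a block on replicate number (0.0112). It also passed without 1 kPa replicate 4 (0.0409) or 8 kPa replicate 4 (0.0279). NFE2L2 at 30 against 8 kPa (-0.12, adjusted p = 0.286) and at 8 against 1 kPa (-0.11, adjusted p = 0.22) did not pass.

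KEAP1 was highest at 8 kPa, with 42.5 ± 2.62 CPM at 1 kPa, 47.4 ± 2.70 CPM at 8 kPa and 39.9 ± 1.43 CPM at 30 kPa. Its log2 fold change was 0.15 at 8 against 1 kPa (adjusted p = 0.0935), -0.25 at 30 against 8 kPa (adjusted p = 0.124) and -0.09 at 30 against 1 kPa (adjusted p = 0.421). At 30 against 8 kPa it passed with DESeq2 (0.0128) and without 1 kPa replicate 2 (0.0418) or 8 kPa replicate 4 (0.0339). BACH1 fell slightly on both stiffer surfaces, by 0.14 at 8 against 1 kPa (adjusted p = 0.0409) and by 0.18 at 30 against 1 kPa (adjusted p = 0.0443) on the log2 scale. Those calls were narrow, and failed in 9 and 10 of the 12 leave-one-out fits, with adjusted p up to 0.0954 and 0.137, and with library size alone as the scaling (0.134 and 0.112). BACH1 at 30 against 8 kPa did not pass (-0.04, adjusted p = 0.682).

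Other genes of the pathway were taken from 5 lists with 102 names, of which 90 were tested, 10 were below the filter and 2 were not analysed here. These lists were chosen with earlier results of these data known, so counts over them are descriptions. In 30 against 1 kPa 3 of the 90 fell, EPHX1, SLC7A11 and BACH1, and 0 rose, or 3.33% beside 2.43% of all genes. EPHX1, the microsomal epoxide hydrolase and an NRF2 target, held 40.8, 44.9, 43.0 and 40.5 CPM at 30 kPa and 58.1, 62.2, 55.2 and 57.4 CPM at 1 kPa. These groups did not overlap, and the log2 fold change was -0.46 (SE 0.0574, adjusted p = 0.00317), a call that held in all 12 leave-one-out fits. EPHX1 also fell at 8 against 1 kPa (-0.34, adjusted p = 0.00713), again in all 12 leave-one-out fits, and with a term for depth class both calls were lost (adjusted p = 0.444 and 0.0907).

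SLC7A11, the transporter that brings in cystine for glutathione synthesis, averaged 134 ± 22.2 CPM at 30 kPa and 199 ± 12.1 CPM at 1 kPa (n = 4 each, SD), which gave -0.57 on the log2 scale (adjusted p = 0.02). It failed when replicate 3 of 1 kPa, or replicate 1 or 3 of 30 kPa, was left out (adjusted p up to 0.077), and with a term for depth class (0.444). Its partner chain SLC3A2, named after its values were seen, stood at -0.31 in the same comparison (adjusted p = 0.0623). The count of 3 listed genes was 1 with replicate 3 of 1 kPa or replicate 1 or 3 of 30 kPa left out, and 6 with replicate 4 of 8 kPa left out.

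**Figure D3:**
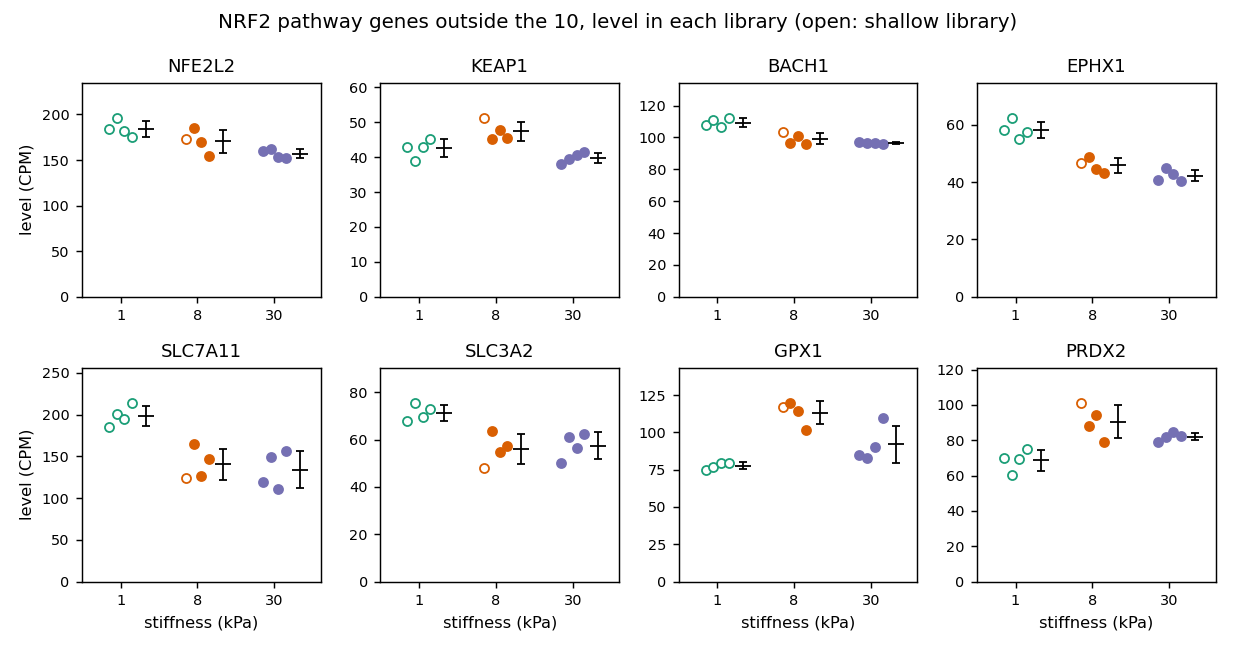
Level (y axis, CPM, from 0) of 3 regulators and 5 further pathway genes at 1, 8 and 30 kPa (x axis), with 1 point per library, open for shallow libraries, and the mean with its SD (n = 4). EPHX1 and SLC7A11 are lower at 8 and 30 kPa than at 1 kPa, and GPX1 is highest at 8 kPa, at 113 ± 7.81 CPM.

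At 8 against 1 kPa 14 of the 90 listed genes rose and 8 fell, 24.4% beside 13.8% of all genes. Nothing is read from that share, since the lists were chosen with earlier results of these data known. In the list of glutathione synthesis and recycling 7 of 20 rose and 3 fell. The peroxidase GPX1 averaged 113 ± 7.81 CPM at 8 kPa and 77.6 ± 2.31 CPM at 1 kPa (0.54, SE 0.0802, adjusted p = 0.00521), and GPX4, which protects membrane lipids, rose by 0.33 (adjusted p = 0.0109). The glyoxalase GLO1 rose by 0.41 (adjusted p = 0.0132), which failed once 8 kPa replicate 3 was left out (0.0546). Of 17 thioredoxin, peroxiredoxin and superoxide genes 4 rose and 0 fell. These included the peroxiredoxins PRDX2 (0.40, adjusted p = 0.0094), PRDX3 (0.25, adjusted p = 0.00943) and PRDX5 (0.31, adjusted p = 0.0173), the last of which failed with replicate 1 (0.0603) or 3 (0.0652) of 8 kPa left out. Levels at 30 kPa lay between for GPX1 and PRDX2, at 91.9 ± 12.1 and 82.1 ± 2.21 CPM.

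The NRF2 targets outside the 10 did not move one way at 8 against 1 kPa. Of 30 tested, 2 rose, TALDO1 (0.25, adjusted p = 0.0181) and PGD (0.16, adjusted p = 0.048), both in the pentose phosphate pathway, and 3 fell, EPHX1, the export pump ABCC3 (-0.50, adjusted p = 0.0402) and ABHD4 (-0.26, adjusted p = 0.0492). PGD and ABHD4 were named after their values were seen. TALDO1 lost its call without 8 kPa replicate 1 (0.0627) or 3 (0.0612), and ABCC3 in 6 of the 12 leave-one-out fits (up to 0.123). Among 13 regulators SQSTM1, a KEAP1-binding autophagy receptor, fell (-0.27, adjusted p = 0.0239), as did BACH1, and 0 rose; SQSTM1 failed with replicate 3 of 1 kPa (0.0531) or replicate 1 (0.0745) or 3 (0.0729) of 8 kPa left out. Among 12 other glutathione transferases only GSTCD passed (0.23, adjusted p = 0.0465), and it did so in 2 of the 12 leave-one-out fits. The count of 22 listed genes was 5 and 6 with replicate 3 or 1 of 8 kPa left out, and 11 and 13 with replicate 2 or 3 of 1 kPa left out. It was 0 with a term for depth class.

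At 30 against 8 kPa 0 of the 90 listed genes passed edgeR's test, as did 0 of all 17960 genes. In that test 32 of the 90 had an unadjusted p under 0.05, beside 3218 of all genes. DESeq2 called 8 of the 90, and its count over all genes is given above with the members. Fold changes were negative in 17 of 20 synthesis and recycling genes, 24 of 30 NRF2 targets, 9 of 13 regulators, 8 of 12 transferases and 11 of 17 thioredoxin and related genes. The medians were -0.12, -0.13, -0.11, -0.04 and -0.12 in that order, beside 0.00372 for all genes. The ferritin light chain FTL averaged 663 ± 77.4 CPM at 30 kPa and 950.5 ± 124 CPM at 8 kPa, a log2 fold change of -0.52 (adjusted p = 0.12), with 8 kPa replicate 4 the lowest of its group at 766 CPM. In this comparison FTL was named after its values were seen. Without 8 kPa replicate 4 the listed genes called numbered 15, beside 1026 of all genes. Without 1 kPa replicate 2 they numbered 4, beside 187 of all genes.

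**Figure D4:**
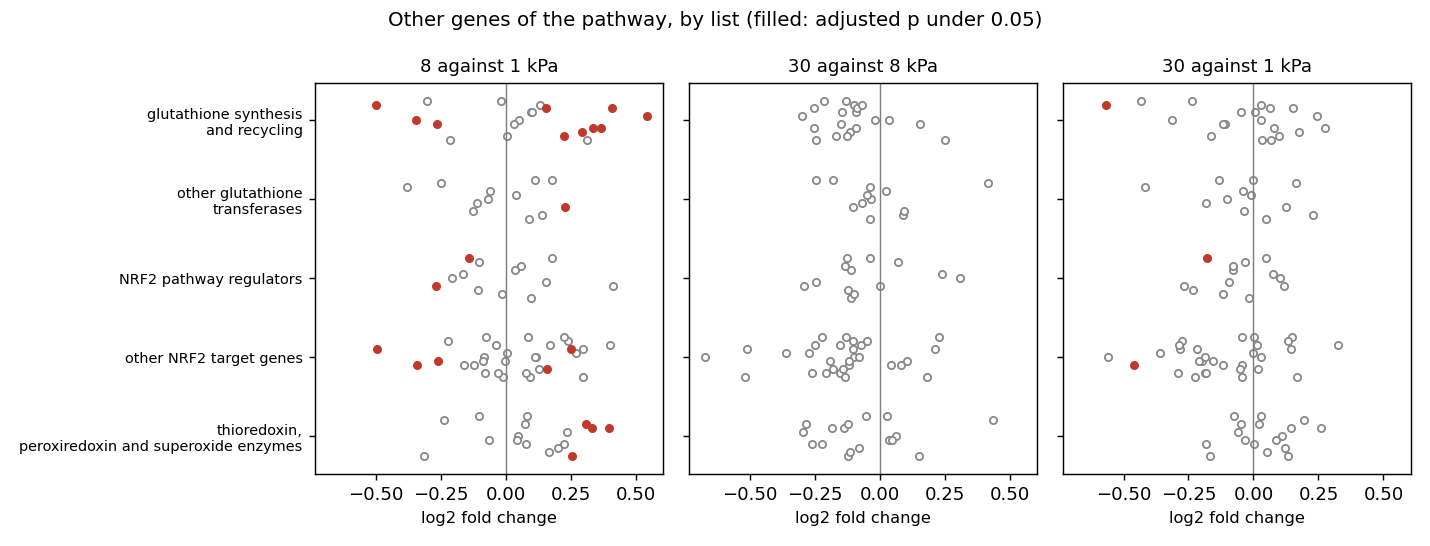
Log2 fold change (x axis) of each tested gene of the 5 lists (y axis) for 8 against 1 kPa, 30 against 8 kPa and 30 against 1 kPa, filled where the adjusted p of edgeR's test was under 0.05. Filled points number 22, 0 and 3 genes, with TXN and PRDX1 drawn in 2 lists, and most points lie left of 0 in the panel of 30 against 8 kPa.

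Against the mean of 1 and 30 kPa, 13 of the 90 listed genes were higher and 1 lower at 8 kPa, 15.6% beside 7.08% of all genes. For the same reason as at 8 against 1 kPa, nothing is read from that share. By list, 3 of 20 synthesis and recycling genes, 4 of 30 NRF2 targets, 1 of 13 regulators and 6 of 17 thioredoxin and related genes were higher, SESN2 of the last list was lower and 0 of 12 transferases passed. GPX1 departed by 0.42 (adjusted p = 0.0231), FTL by 0.41 (adjusted p = 0.035), KEAP1 by 0.20 (adjusted p = 0.0351) and SESN2 by -0.34 (adjusted p = 0.0304). The listed genes called numbered 0 when replicate 1 or 3 of 8 kPa, or replicate 1 or 2 of 30 kPa, was left out. They numbered 7 and 4 with replicate 1 or 3 of 1 kPa left out, 1 with replicate 2 of 8 kPa, 3 with replicate 3 of 30 kPa, 23 with replicate 4 of 1 kPa and 21 with replicate 4 of 8 kPa.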

How the data were processed

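The data were RNA-seq counts of SK-N-SH cells, 4 libraries per stiffness. The authors deposited raw counts per Ensembl gene, aligned with HISAT2 to GRCh38 per the submitters' processing notes. Which tool counted reads, on which annotation and with which strand setting, and the read length are not given in the sources used here. Reads in bases that a gene shares with an antisense partner therefore cannot be assigned with certainty. Of 60664 genes, 60463 were matched to the name table. Positions and exon lengths came from GENCODE v29 on GRCh38 and promoters from RefSeq on GRCh38.p14; HMOX1 had no promoter entry.

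The work used edgeR 4.0.16 under R 4.3.3. The filterByExpr function dropped low genes, and the rest were scaled by TMM and fitted over all 12 libraries with stiffness as the only term. P-values of quasi-likelihood F-tests over 17960 genes were Benjamini-Hochberg adjusted, and 0.05 was the limit for a call. SE is the size of the log2 fold change over the root of F. The steps were checked on simulated counts. Within a group, pairs of libraries differed by a chi-square of 2.52 to 30.8 per gene, above sampling noise, so none was taken for 1 library deposited in duplicate; that does not show that they are separate cultures. Members, lists and tests were chosen with earlier results of these data known. Named are the 10 members, NFE2L2, KEAP1, BACH1 and, per list and comparison, up to 3 genes past the threshold with the smallest adjusted p; others are marked. Alternatives covered scaling, filters, DESeq2 1.42.0, the compared groups alone, a replicate block, a depth-class term and each library left out.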

Additional observations from a re-analysis of the deposited data

Results flagged for a closer look

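Among the 30 combinations of a member and a stiffness no library stood apart from the other 3 of its group by Dixon's test at the 95% level. Among 57 combinations of the other named genes, 3 did, and chance gives about 1 in 20. FTL was 766 CPM in 8 kPa replicate 4 and 1001 to 1033 CPM in the other 3. PRDX5 was 101 CPM in 8 kPa replicate 4, against 121 to 124 CPM in the rest of that group, and 105 CPM in 30 kPa replicate 4, against 92.7 to 93.3 CPM.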

How the results depend on the processing

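For the 10 members, counts at 8 against 1 kPa and for the departure of 8 kPa, and any that include GSTM2, rest on values that helped to choose them and are descriptions only. Nothing is read from their counts at 30 against 1 kPa, which use the same 1 kPa libraries. Members past the threshold at 8 against 1 kPa numbered 2, and 0 with a term for depth class (2 to 3 without 1 library). At 30 against 8 kPa they numbered 0, and 1 with no filter, 1 with DESeq2 and 1 in the compared groups alone (0 to 3). At 30 against 1 kPa they numbered 2, and 1 with library size alone, 1 in the compared groups alone and 0 with a term for depth class (1 to 2). For the departure of 8 kPa the range without 1 library was 0 to 4. Listed genes called at 8 against 1 kPa numbered 22, and 0 with a term for depth class and 11 in the compared groups alone (5 to 25). At 30 against 8 kPa they numbered 0, and 6 with no filter, 8 with DESeq2 and 1 in the compared groups alone (0 to 15). At 30 against 1 kPa they numbered 3, and 8 with DESeq2, 6 with no filter, 6 with a block on replicate number, 5 under the stricter filter and 0 with a term for depth class (1 to 6). For the departure they numbered 14, and 24 with DESeq2 and 25 with the block (0 to 23). The cause was not tested. The labels do not say that replicate numbers mark a shared batch. Of 12 same-numbered pairs 6 had a correlation of deviations over 0.1, from -0.13 to 0.37, and 6 of 12 libraries correlated best with their own number. The block left the members called at 2, 0, 2 and 2. All genes called were 2472, 0, 437 and 1272 in the 4 comparisons, 3273, 40, 974 and 2096 with the block, 3153, 430, 1068 and 2296 with DESeq2, and 0, 0, 0 and 1268 with the depth term. Signs turned in a few small values. NFE2L2 in the departure (0.01) was -0.0031 with the stricter filter and ran from -0.035 to 0.047 without 1 library, and KEAP1 at 30 against 1 kPa was 0.053 with the depth term. Without 1 library, HMOX1 ran from -0.23 to 0.033 at 30 against 8 kPa and from -0.25 to 0.017 at 30 against 1 kPa, TXNRD1 from -0.039 to 0.032 at 30 against 8 kPa, and SRXN1 from -0.054 to 0.43 and from -0.10 to 0.39. GSTM2 at 8 against 1 kPa was -1.03 and HMOX1 -0.24 with the depth term. At 8 to 23 counts per library, SRXN1 had a SE of 0.257 to 0.317 over the 4 comparisons, which limits the changes that could be detected.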
